A study of Mus musculus with 8 samples.

Results

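The 36 genes described here make up much of the actin remodelling machinery and the membrane skeleton of a macrophage-type cell. They were taken by name from the 56832 gene rows of an RNA-seq table of microglia, the resident macrophages of the brain, and all 36 were found. All 36 also passed the filter for testing, an average of 10 or more normalized counts per library, which 14428 genes passed. The genes fall into 6 roles: actin and its monomer binders (5 genes), the Arp2/3 complex and coronins (9), the WASP and WAVE nucleation promoters (8), small GTPases and their exchange factors (6), proteins of filament ends (4), and membrane linkers and spectrins (4).

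Microglia were sorted by FACS from brains of male 5xFAD mice, and the design compared an ethanol group with a saline group of 4 libraries each. Ethanol mice received 3 g/kg of a 20% ethanol solution by intraperitoneal injection on 5 days a week for 4 weeks, and saline mice received saline on the same schedule. A withdrawal of 2 weeks followed in both groups. Both groups carried the 5xFAD transgenes, human genes with familial Alzheimer's disease mutations driven in neurons by the Thy1 promoter, so an effect of ethanol in mice without amyloid is not measured here. The labels used here give no age and do not say whether each library is a separate mouse, so p-values measure the spread between these libraries, which may be technical.

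Actin filaments grow from a pool of monomers that thymosin and profilin hold and deliver. The Arp2/3 complex starts new filaments as branches on old ones when WASP or WAVE proteins, under the small GTPases Cdc42 and Rac, switch it on, and capping and severing proteins limit filament length. ERM proteins and the spectrin network tie the cortex to the plasma membrane. In microglia this machinery drives process movement, chemotaxis and the engulfment of debris, including amyloid.

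Each library held between 14271351 and 17231301 assigned reads, recovered from the deposited normalized counts, with 19329 to 20403 genes above 0. Markers of microglia took 4.62 ± 0.0931% of the counts in ethanol and 4.39 ± 0.115% in saline libraries (SD, n = 4 each; two-sided exact permutation p = 0.0571, adjusted p = 0.685 over 12 lists) and all 8 markers of that list passed the filter. Markers of other cell types were low: the summed share of the neutrophil list ran from 0.0165 to 0.0933% of a library, of the astrocyte list from 0.0419 to 0.0604%, and of the endothelial and mural list from 0.0037 to 0.0047%. The lymphocyte list took 0.0038 to 0.0066% of a library. Of its 11 genes 4, Cd3e, Cd3d and Ms4a1 among them, had no read in any library. In a principal component analysis the libraries did not separate by treatment. The first component, holding 20.1% of the variance, divided samples 1 and 2 from samples 3 and 4 in both groups. It ran from -31.39 to -13.85 in samples 1 and 2 and from 4.58 to 60.67 in samples 3 and 4. The cause of this division was not tested. In such bulk samples fewer cells of a type and less RNA per cell cannot be told apart.

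Promoter sequences were available for 30 of the 36 genes, as windows of the 250 bases before the annotated start (RefSeq, GRCm38.p6, a build older than the GRCm39 of the expression table). They were searched for the CArG box, the motif bound by serum response factor, a regulator of actin genes, and for the GC box GGGCGG bound by Sp1-type factors, both on either strand. A CArG box was found in 2 of the 30 genes (6.7%), against 1.62% of the 27025 genes with a window. The 2 genes were Actg1, where its far end lay 90 bases before the start (chr11:120348496-120348745, minus strand), and Arpc4, where it lay 250 bases before the start at the edge of the window (chr6:113377863-113378112, plus strand). Both windows are shown with the CArG box in capitals, 5′ to 3′.
Actg1: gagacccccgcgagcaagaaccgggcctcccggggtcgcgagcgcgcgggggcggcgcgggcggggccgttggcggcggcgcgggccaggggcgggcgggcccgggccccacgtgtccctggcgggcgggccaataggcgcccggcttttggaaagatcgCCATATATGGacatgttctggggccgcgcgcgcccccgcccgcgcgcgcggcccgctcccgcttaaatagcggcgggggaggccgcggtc
Arpc4: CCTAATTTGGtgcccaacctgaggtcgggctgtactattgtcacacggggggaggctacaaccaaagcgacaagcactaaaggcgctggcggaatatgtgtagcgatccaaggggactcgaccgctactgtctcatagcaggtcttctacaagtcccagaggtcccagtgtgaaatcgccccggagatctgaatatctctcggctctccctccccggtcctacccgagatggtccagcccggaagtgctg
A GC box was found in 21 of the 30 genes, against 9555 (35.4%) of the 27025 genes with a window. For both motifs those background genes were not limited to genes expressed here, as the 36 are, so the shares compare unlike sets. Sptbn1, the gene of the 36 with the largest fold change between the groups, has 2 annotated starts, of which the one shown had 1 GC box, in capitals (chr11:30198258-30198507, minus strand), and the other (chr11:30219773-30220022) had none.
Sptbn1: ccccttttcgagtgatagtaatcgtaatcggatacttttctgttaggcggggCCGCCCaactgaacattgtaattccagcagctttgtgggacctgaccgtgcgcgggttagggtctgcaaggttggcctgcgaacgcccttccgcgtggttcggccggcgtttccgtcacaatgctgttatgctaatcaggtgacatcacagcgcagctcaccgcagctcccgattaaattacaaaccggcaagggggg
A match is a run of letters and no evidence of binding. No window was found in the table for Actb, Coro1b, Cyfip1, Nckap1l, Abi3 and Rac1.

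Levels of different genes were compared as the mean normalized count over the 8 libraries per kb of the longest coding transcript. Tmsb4x, Pfn1 and Actb stood at the top, and Gsn, Ezr and both spectrins at the bottom. Tmsb4x, thymosin beta 4, which sequesters actin monomers, had 62049 normalized counts per kb and by itself took 18.0 to 23.2% of the 36 genes' counts in a library. Pfn1, profilin, which recharges monomers and feeds them to growing ends, followed at 13100 per kb and Actb, beta-actin, at 11878 per kb. Pfn1 was above Actb in all 8 libraries on this scale, with ranges of 12575 to 13981 for Pfn1 and 11141 to 12821 per kb for Actb. With merged exon lengths their order turned, at 10993 for Pfn1 and 11878 for Actb, so the order depends on the length used.

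The next level was Cdc42, a GTPase that activates WASP, at 6137 per kb. The Arp2/3 subunits lay between Actr3 at 1653 and Arpc2 at 4900 per kb. Among the WAVE complex genes Brk1 had 3483, Nckap1l 3135, Cyfip1 2607, Abi3 1396, Abi1 1182 and Wasf2 1064 per kb. Proteins of such a complex are known to assemble together, but their transcripts differed in level per length here. The lowest levels were those of Sptan1 at 63.4, Gsn at 35.1, Sptbn1 at 22.3 and Ezr at 14.9 per kb. Reads of processed pseudogenes and near-identical copies could have been counted with Actb, Actg1, Tmsb4x, Pfn1 and Cfl1, so their levels are less certain than those of single-copy genes.

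**Figure D1:**
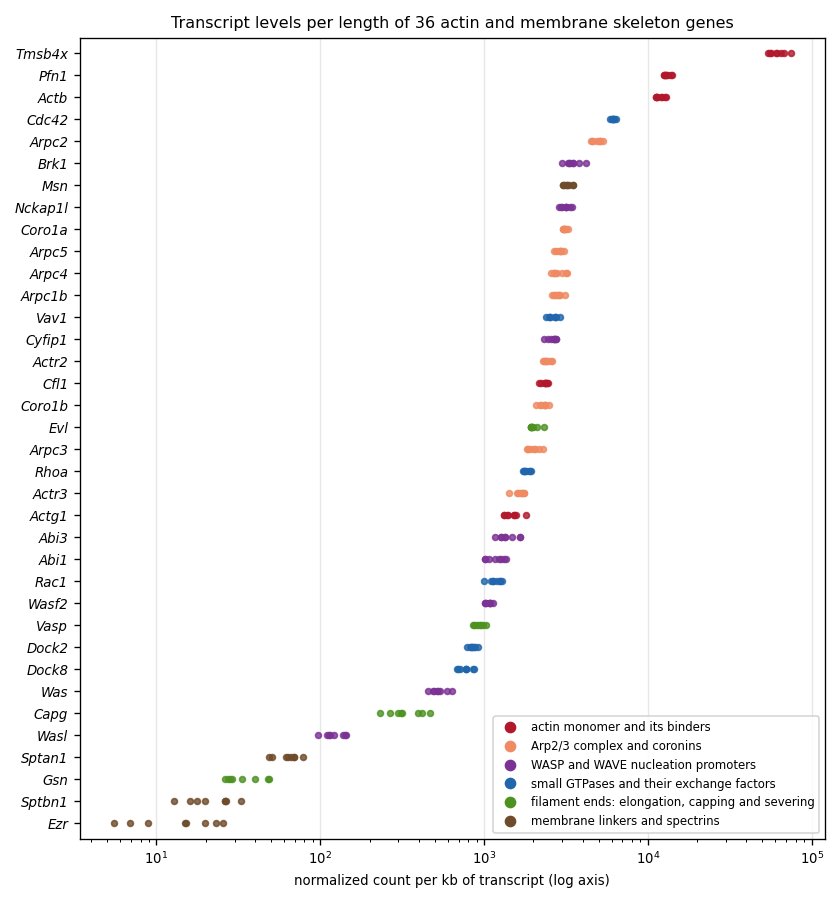
Normalized count per kb of transcript (log axis) for the 36 genes, sorted by level and coloured by role, with each library's value as a point. Tmsb4x stands highest at 62049 per kb and Ezr lowest at 14.9 per kb.

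Many of these proteins have paralogs, and for each family the share of its summed level per kb was taken. Microglia used the blood-cell form in several families. Nckap1l, the haematopoietic subunit of WAVE, held 99.3% of the NCKAP1 family in ethanol and 99.5% in saline libraries. Was, the haematopoietic WASP, held 82.6 ± 2.99% in ethanol and 79.7 ± 2.78% in saline libraries (SD, n = 4 each), the rest being its ubiquitous relative Wasl. Vav1, the haematopoietic Vav exchange factor, held 86.7% in ethanol and 85.1% in saline libraries.

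The ABI and Rac families were divided more evenly. Abi3 held 51.7% in ethanol and 51.1% in saline libraries, beside Abi1 at 43.5% in ethanol and 43.8% in saline libraries. Rac1 held 53.4 ± 3.34% in ethanol and 54.9 ± 1.47% in saline libraries of the sum with Rac2, the haematopoietic Rac. Of the ERM linkers, most of the level came from Msn, which held 86.6% in ethanol and 86.1% in saline libraries, Rdx most of the rest, and Ezr 0.396% in ethanol and 0.405% in saline libraries. These shares are descriptions with no test.

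**Figure D2:**
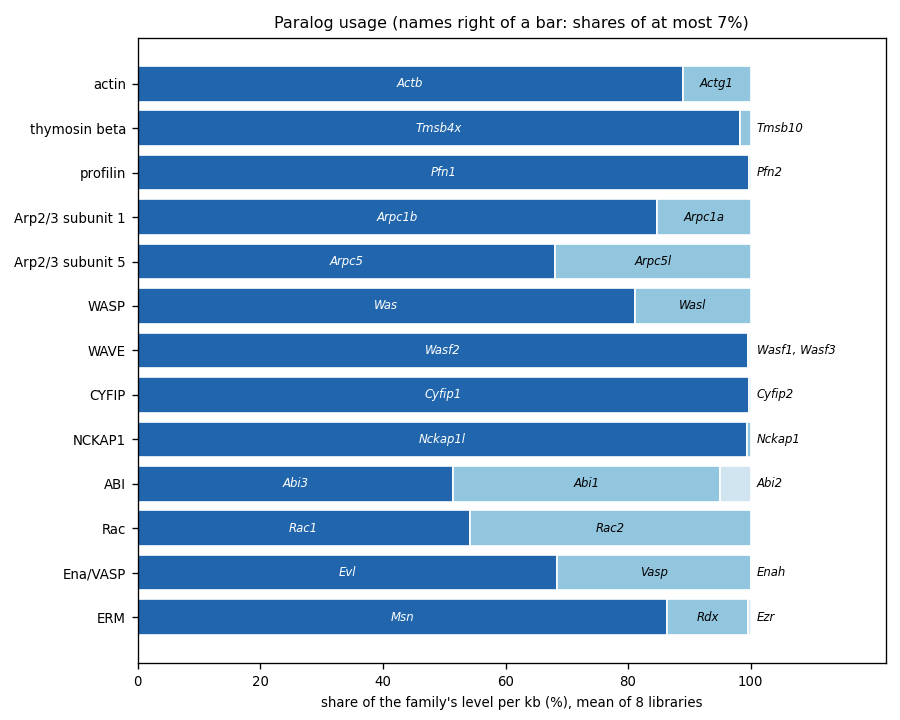
Share of each family's summed level per kb (percent, mean of the 8 libraries) held by each paralog, with names right of a bar for shares of at most 7%. Single genes such as Pfn1, Wasf2 and Cyfip1 fill their bars, while the ABI, Rac and Ena/VASP bars are divided.

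Ethanol was then compared with saline across all 14428 tested genes. No gene of the 36 passed the adjusted threshold of 0.05 in limma, and 0% of all genes tested did, with adjusted p-values of 0.997 or more for the 36 genes. At an unadjusted p under 0.05 stood 1 of the 36, Sptbn1, which is 2.78% of them. For all genes this share was 3.63% (1.7% higher and 1.93% lower in ethanol). Run on the recovered reads, edgeR and DESeq2 called no gene either. Their shares at an unadjusted p under 0.05 were 3.43% of 14428 genes in edgeR and 2.9% of 26782 genes in DESeq2. The DESeq2 share is over more genes because that fit kept genes below the filter. The fold change was above 1 for 23 of the 36 genes and below 1 for 13, against 48.8% above 1 for all genes. The median log2 fold change was 0.02 for the 36 genes and -0.01 for all genes tested. The groups did not overlap for 2 of the 36, Dock2 and Sptbn1, and for 2.32% of all genes.

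The intervals give the fold changes compatible with each gene's values. They are unadjusted and do not say how small a difference would have passed the adjusted threshold. For all 30 genes that averaged 1000 normalized counts or more, the 95% interval of the fold change lay within 1.25-fold in either direction, as it did for 75.7% of the 3450 such genes in the table, whose median mean was lower (1845 against 5551). For the other 6, Wasl, Capg, Gsn, Ezr, Sptan1 and Sptbn1, it did not. Summed over the 36 genes, the transcripts took 1.68 ± 0.0371% of the counts in ethanol and 1.67 ± 0.0463% in saline libraries (SD, n = 4 each).

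**Figure D3:**
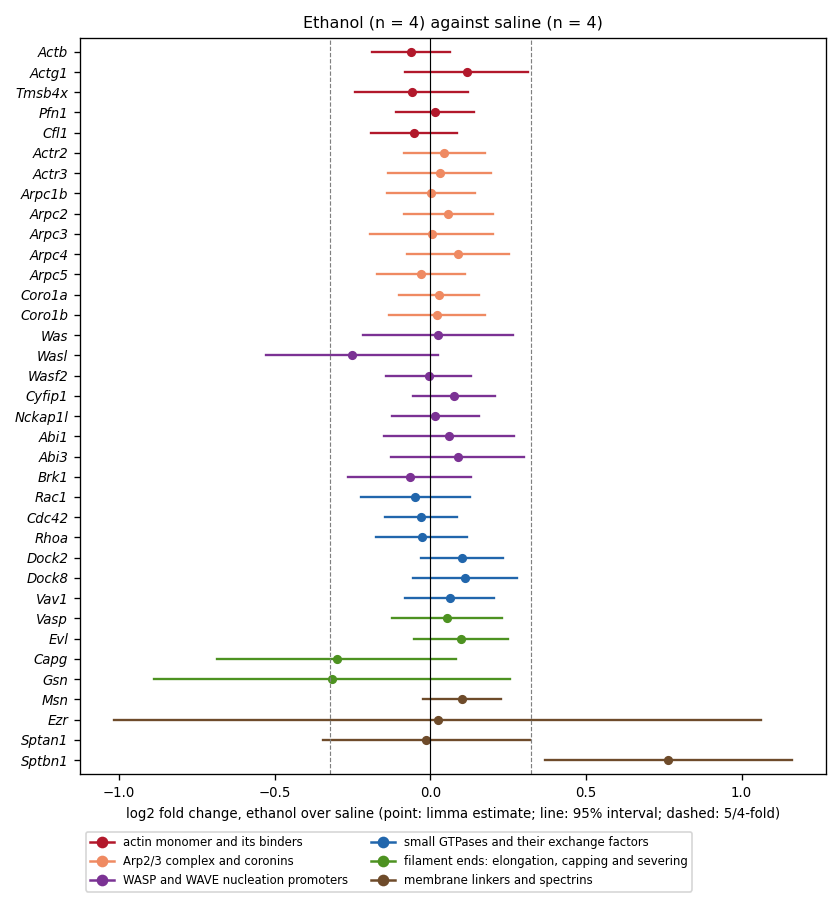
log2 fold change of ethanol over saline for the 36 genes (points, limma estimates; lines, 95% intervals; colours, roles; dashed lines, 1.25-fold). All genes lie near 0 apart from a few with low counts, and Sptbn1 alone has an interval on 1 side of 0, at 0.76; its adjusted p was 0.997.

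Of actin and its monomer binders, Actb, Pfn1 and Cfl1 had coefficients of variation of 5.57, 4.18 and 4.30% over the 8 libraries, and Actg1 and Tmsb4x of 10.9 and 11.4%. Actb had 21602, 21390, 24393 and 21911 normalized counts in ethanol libraries 1 to 4, against 23443, 23134, 24616 and 21955 in saline libraries 1 to 4. Actg1, gamma-actin, had 2583, 2962, 3525 and 2980 in ethanol and 2733, 2586, 2680 and 3063 in saline libraries. The groups overlapped for both genes, ethanol library 3 being highest for Actg1. The fold change was 0.958 for Actb (95% interval 0.878 to 1.04, adjusted p = 0.997 in limma) and 1.08 for Actg1 (0.946 to 1.24). Actb's share of their summed level per kb was 88.3 ± 0.822% in ethanol and 89.5 ± 1.09% in saline libraries.

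Tmsb4x had 47884, 46595, 58973 and 56506 normalized counts in ethanol and 53168, 48916, 64569 and 52269 in saline libraries. The highest value in each group was in library 3, and the fold change was 0.959 (0.846 to 1.09). Pfn1 had 10827, 11102, 11376 and 12038 in ethanol and 11029, 10861, 11947 and 11051 in saline libraries, a fold change of 1.01 (0.925 to 1.10). Cfl1, cofilin, which severs and disassembles filaments, had 5098, 5547, 5210 and 5786 in ethanol and 5718, 5551, 5609 and 5528 in saline libraries. Its saline values lay close together (SD 85.0) inside a wider ethanol range, and its fold change was 0.965 (0.877 to 1.06).

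In the Arp2/3 group 8 of 9 fold changes were above 1, with Arpc1b below it under quantile normalization, but 4 of 9 were in samples 1 and 2 alone and 7 of 9 in samples 3 and 4 alone. All 9 lay between 0.980 and 1.06, and none passed the adjusted threshold. Actr2, which with Actr3 forms the start of the new branch, had 9404, 8708, 8311 and 9320 normalized counts in ethanol and 8482, 8663, 8511 and 8964 in saline libraries. Arpc1b, the subunit 1 form that human blood cells depend on, had 8656, 8433, 8750 and 9046 in ethanol and 8106, 8908, 9663 and 8252 in saline libraries. The groups overlapped for both, with fold changes of 1.03 (0.942 to 1.13) and 1.00 (0.908 to 1.10).

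The subunit with the largest fold change was Arpc4, a core subunit, at 1.06 (0.950 to 1.19, limma adjusted p = 0.997). It averaged 6684 ± 664 in ethanol and 6265 ± 390 in saline libraries (SD, n = 4 each). Actr3, Arpc2, Arpc3 and Arpc5 had fold changes of 1.02, 1.04, 1.00 and 0.980. Coro1a, a coronin of leukocytes that binds filaments and Arp2/3, had 5335, 5672, 5411 and 5564 in ethanol and 5476, 5307, 5393 and 5384 in saline libraries. Its coefficient of variation over the 8 libraries, 2.26%, was the lowest of the 36 genes. Its relative Coro1b averaged 4372 ± 338 in ethanol and 4298 ± 144 in saline libraries.

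Of the WASP and WAVE genes, 5 fold changes were above 1 and 3 below. Was had 1084, 1138, 962 and 1349 normalized counts in ethanol and 1026, 1261, 1043 and 1111 in saline libraries, a fold change of 1.02 (0.860 to 1.20). Wasl, which drives branching in most cell types, had 489, 526, 502 and 423 in ethanol and 627, 596, 620 and 476 in saline libraries. Saline library 4 alone lay inside the ethanol range of Wasl, and the other saline values were above it. Its fold change of 0.839 (0.693 to 1.02, adjusted p = 0.997 in limma) did not pass.

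Within the WAVE complex, Cyfip1, the subunit that binds active Rac, had 17251, 17265, 16611 and 17704 normalized counts in ethanol and 14868, 15754, 17722 and 17134 in saline libraries. Saline libraries 1 and 2 were the low ones, and the fold change was 1.05 (0.961 to 1.15). Nckap1l had 15801, 16251, 13534 and 14057 in ethanol and 14911, 15035, 14901 and 14007 in saline libraries, and its fold change was 1.01 (0.918 to 1.11). Abi3, a WAVE subunit whose human gene carries a variant linked to Alzheimer's disease risk, had 5108, 5344, 6606 and 5944 in ethanol and 5062, 4668, 6611 and 5387 in saline libraries. Library 3 was highest for Abi3 in both groups, at nearly equal values, and the fold change was 1.06 (0.915 to 1.23). Abi1, Wasf2 and Brk1 had fold changes of 1.04, 0.996 and 0.955.

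The GTPases lay just below 1 and their exchange factors just above. Rac1, which activates WAVE, had 4576, 5226, 4155 and 5235 normalized counts in ethanol and 4688, 4743, 4972 and 5376 in saline libraries, a fold change of 0.967 (0.856 to 1.09). Cdc42 and Rhoa, the GTPase that drives contraction through myosin, had fold changes of 0.979 and 0.981. None of the 3 passed the adjusted threshold.

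Dock2, an exchange factor that loads Rac in leukocytes, had 5620, 5909, 5579 and 5438 normalized counts in ethanol and 5339, 5383, 5050 and 5230 in saline libraries. Every ethanol value was above every saline value, by a margin of 5438 over 5383 at the nearest. The fold change was 1.07 (0.979 to 1.18, adjusted p = 0.997 in limma), and 1.12% of all genes had ethanol values wholly above saline. Vav1, which is switched on by immune receptor signalling, had 8565, 7994, 7086 and 8180 in ethanol and 7396, 8018, 7518 and 7502 in saline libraries, with overlapping groups and a fold change of 1.04 (0.944 to 1.15). Dock8, a Cdc42 exchange factor, averaged 6232 ± 617 in ethanol and 5756 ± 360 in saline libraries (SD, n = 4 each), a fold change of 1.08 (0.963 to 1.21).

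At filament ends, Vasp and Evl had fold changes above 1 and Capg and Gsn below it, without passing the test. This is no division by function, since the capping genes Capza1, Capza2 and Capzb of the wider lists stood at 1.03, 1.06 and 1.025. Vasp, which speeds elongation, had 2115, 2095, 1907 and 2274 normalized counts in ethanol and 2175, 1913, 2031 and 1967 in saline libraries, a fold change of 1.04 (0.918 to 1.17). Evl, its relative, had a fold change of 1.07 (0.964 to 1.19). Capg, a macrophage capping protein, had 372, 418, 326 and 589 in ethanol and 440, 437, 549 and 650 in saline libraries. Library 4 was highest for Capg in both groups. Gsn, gelsolin, which severs and caps, had 75.0, 77.2, 106 and 70.0 in ethanol and 129, 72.4, 126 and 88.1 in saline libraries, with saline libraries 1 and 3 high. The fold changes were 0.812 for Capg (0.623 to 1.06) and 0.803 for Gsn (0.540 to 1.19). Gsn is also known in oligodendrocytes, whose marker list took 0.0185 to 0.0213% of each library, and its part in the Gsn values was not tested.

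The membrane linkers and spectrins include Sptbn1, the largest fold change of the 36 genes, beside 3 genes near 1, of which Ezr and Sptan1 turned below or above it under quantile normalization. Msn, moesin, the main ERM linker of leukocytes, had 12393, 13475, 12264 and 13351 normalized counts in ethanol and 11689, 11965, 11702 and 12605 in saline libraries. Only saline library 4 reached into the ethanol range, and the fold change was 1.07 (0.985 to 1.17, adjusted p = 0.997 in limma). Ezr, ezrin, the ERM protein of epithelia, had 21.7, 28.1, 80.2 and 62.8 in ethanol and 73.0, 17.4, 47.9 and 47.2 in saline libraries. The scatter within each group exceeded the difference between them, and the fold change was 1.02 (0.494 to 2.09).

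Sptan1, alpha-II spectrin, which pairs with a beta chain, had 552, 552, 531 and 388 normalized counts in ethanol and 497, 512, 631 and 405 in saline libraries. Library 4 was lowest in both groups, and the fold change was 0.992 (0.788 to 1.25). Sptbn1, beta-II spectrin, had 243, 240, 240 and 298 in ethanol and 117, 147, 179 and 162 in saline libraries. All ethanol values lay above all saline values, at 255 ± 28.8 in ethanol and 151 ± 26.6 in saline libraries (SD, n = 4 each). The fold change was 1.70 (1.29 to 2.24), with an adjusted p = 0.997 over all genes in limma, so it did not pass. Groups fully apart always give a two-sided exact permutation p of 0.0286, the smallest that 4 against 4 allows. That value for Sptbn1 and Dock2 therefore restates the lack of overlap, which 2.32% of all genes share.

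Leaving out each library in turn kept the log2 fold change of Sptbn1 between 0.65 and 0.85, and it was 0.88 in samples 1 and 2 alone and 0.65 in samples 3 and 4 alone. Sptbn1 is also known in endothelial cells and neurons. The endothelial and mural list took 0.0038 to 0.0047% of ethanol and 0.0037 to 0.0043% of saline libraries (two-sided exact permutation p = 0.171, adjusted p = 1.0 over 12 lists), Rgs5 having no read in any library, and the neuron list took 0.00098 to 0.0025% of a library. The part of either list in the Sptbn1 values was not tested. The ratio of Sptbn1 to Sptan1 per length was 0.388, 0.382, 0.397 and 0.677 in ethanol and 0.207, 0.252, 0.250 and 0.351 in saline libraries. That ratio averaged 0.461 ± 0.144 in ethanol and 0.265 ± 0.0613 in saline libraries (SD, n = 4 each), given with no test since it rests on the same counts.

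**Figure D4:**
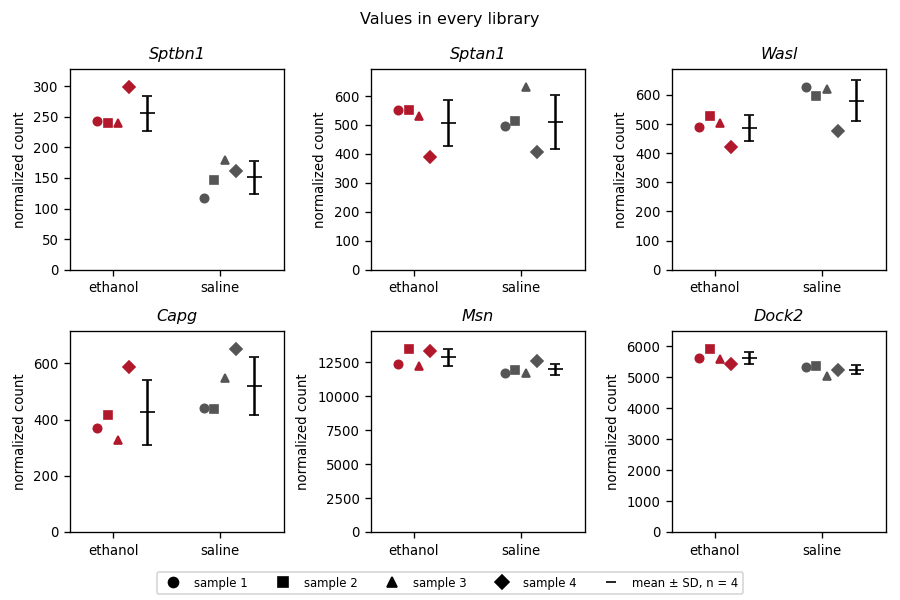
Normalized counts of 6 genes in every library (shapes, sample numbers; bars, mean ± SD, n = 4), ethanol left and saline right, each axis starting at 0. Sptbn1 and Dock2 values do not overlap between the groups, with means of 255 in ethanol and 151 in saline libraries for Sptbn1, while Sptan1, Wasl, Capg and Msn overlap.

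The rest of the pathway was read from 125 further actin genes in 5 lists, of which 115 passed the filter. None passed the adjusted threshold (background 0%), 55 had a fold change above 1 and 60 below, and the median log2 fold change was -0.01. At an unadjusted p under 0.05 stood 7 (6.09%), 4 higher and 3 lower in ethanol, against 3.63% of all genes. The groups did not overlap for 5 of the 115, Flna, Washc5, Capza2 and Pxn being higher and Rhog lower in ethanol, against 2.32% of all genes. Capza2 had a fold change of 1.06, and Pxn and Rhog, which are named only for this count, of 1.08 and 0.950. Flna, filamin A, which cross-links filaments, had 1569, 2047, 1480 and 1989 normalized counts in ethanol and 1372, 1450, 1350 and 1394 in saline libraries. Its groups did not overlap, and its fold change was 1.26 (1.08 to 1.48, adjusted p = 0.997 in limma).

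Washc5, a subunit of the WASH complex, which starts branched actin on endosomes, had 1103, 1153, 1008 and 1048 in ethanol and 814, 870, 989 and 816 in saline libraries. These groups did not overlap either, and the fold change was 1.24 (1.07 to 1.44). Wipf1, which stabilises WASP, averaged 1408 ± 221 in ethanol and 1692 ± 162 in saline libraries, a fold change of 0.828 (0.701 to 0.977). Svil, Iqgap1, Rhob and Fmnl2 had fold changes of 1.34, 1.35, 0.909 and 0.662. The log2 fold change of Fmnl2 ran from -0.753 to -0.242 when 1 library was left out, the value nearest 0 being the one without ethanol 4. Arhgef7, just outside an unadjusted p of 0.05, had a fold change of 0.804. Of the genes named regardless of outcome, Aif1, the microglial marker IBA1, had a fold change of 1.02, Lcp1 1.04, Rac2 1.03 and Myh9 1.12. Sptb, the erythroid beta spectrin, averaged 48.2 ± 30.6 in ethanol and 21.3 ± 18.2 in saline libraries (SD, n = 4 each; fold change 2.27, 0.897 to 5.73).

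The 36 genes did not vary together as a block across the 8 libraries. Over their 630 pairs the median Pearson r of log2 values was 0.11 and the range -0.814 to 0.919, against a median of 0.0215 over pairs of the 3450 genes averaging 1000 or more. These are descriptions over 8 libraries that share amplification and depth. Of 10 pairs of partners none passed adjustment over the 10. Rac1 and Cdc42 gave r = 0.719 (exact permutation p = 0.041, adjusted p = 0.205; Spearman's rank correlation = 0.762, exact permutation p = 0.0368, adjusted p = 0.184), and r = 0.480 without ethanol 3 and saline 4.

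Actb and Tmsb4x gave r = 0.761 (exact permutation p = 0.0316, adjusted p = 0.205; Spearman's rank correlation = 0.833, exact permutation p = 0.0154, adjusted p = 0.154). This r fell to 0.294 without ethanol 3 and saline 3, so its size depends in part on those libraries. Here, as in each pair, the libraries left out were the 2 farthest from the median of the first-named gene, which narrows the range. The alpha and beta spectrins gave r = -0.101, and 0.413 without ethanol 4 and saline 4. Cyfip1 and Nckap1l, which bind each other in the WAVE complex, gave r = -0.0027, and 0.312 without saline 1 and saline 2.

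A relation noticed after the values were seen concerned short, abundant transcripts. A score of 75 ribosomal protein genes, their mean log2 deviation, was -0.22, -0.21, 0.18 and 0.18 in ethanol and -0.14, -0.11, 0.32 and 0.00 in saline libraries. Tmsb4x followed it with r = 0.947 (exact permutation p = 0.000769, adjusted p = 0.0277 over the 36 genes; Spearman's rank correlation = 0.881, exact permutation p = 0.00724, adjusted p = 0.261; r = 0.902 without ethanol 4 and saline 3). The rank correlation thus did not pass the adjustment. The score divided the libraries as the first principal component did, being negative only in those numbered 1 and 2. The permutations treated all libraries as exchangeable. Their p-values therefore cannot separate a relation specific to Tmsb4x from this division, and a relation within either set was not tested. Pfn1, Abi3, Brk1 and Arpc4 had r of 0.872, 0.861, 0.832 and 0.828, while Nckap1l, Dock8, Dock2 and Evl had -0.68, -0.607, -0.592 and -0.591. Not all of these followed length, since the transcript of Abi3 has 4006 nt and that of Evl 2180 nt.

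In all, 5 of the 36 genes (13.9%) had an r of at least 0.8, against 257 of the 3450 genes averaging 1000 or more (7.45%). The 2 sets are not alike: 6 of the 36 average under 1000, and the 3450 include abundant genes of the score itself. The r ran with transcript length: its median was 0.595 for the 11 members under 2000 nt and -0.0192 for the 10 of at least 4000 nt, and its rank correlation with length was -0.492 over the 36 genes and -0.443 over 3370 abundant genes. The median r with the score was 0.263 for the 36 genes and -0.13 for the 3450 genes. These values describe the libraries and were not tested. The fold change of Sptbn1 with the score as a covariate was 0.79 on the log2 scale.

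**Figure D5:**
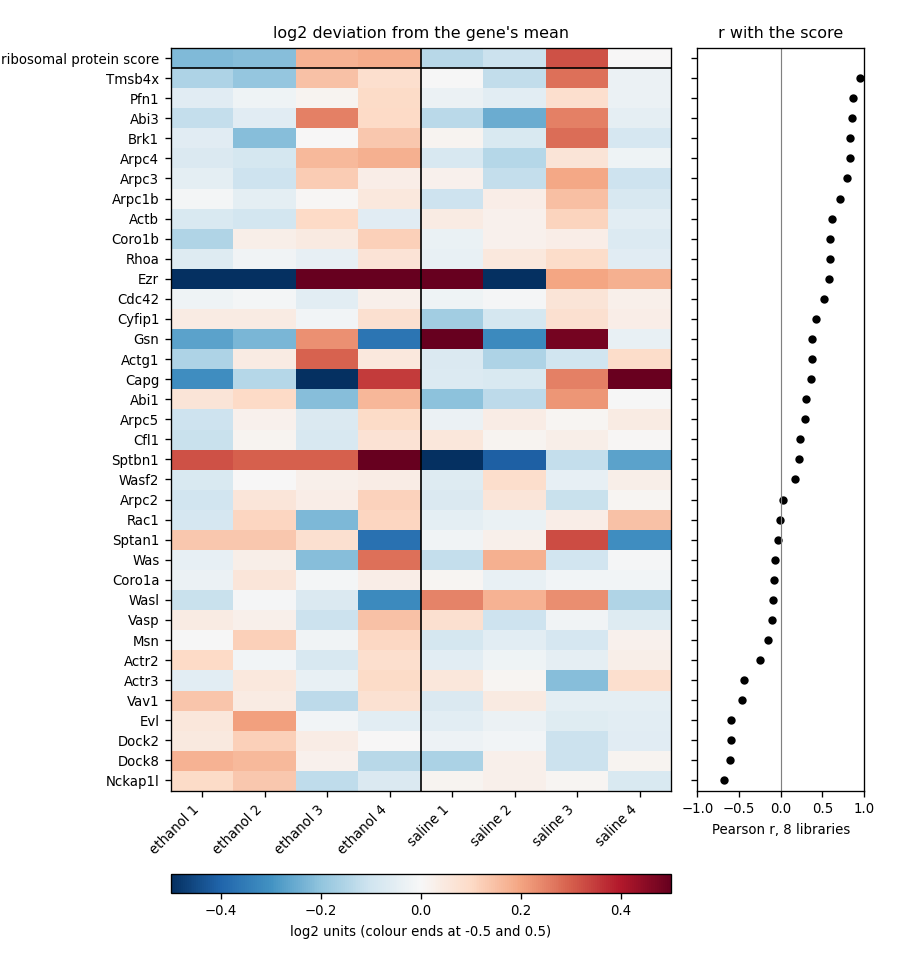
Left, log2 deviation of each gene from its own mean in each library (colour ends at -0.5 and 0.5), with the ribosomal protein score on top and ethanol left of saline; right, Pearson r of each gene with the score over 8 libraries. Genes run from Tmsb4x at 0.947 down to Nckap1l at -0.68, and ethanol 3, ethanol 4 and saline 3 share the high values of the upper genes.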

How the data were processed

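Per the labels' protocols, 500 pg of RNA per library was amplified with the SMARTer kit and 150 pg of cDNA entered a NexteraXT preparation, which does not mark strand, for paired reads of 150 nt. Per the submitters' processing notes, the build was GRCm39 and the tools included R 4.2.2, DESeq2, Salmon 1.5.2, featureCounts 2.0.1 and STAR 2.7.9a, in roles not given in the sources used. The deposited table holds a signal per gene and library, DESeq2-normalized counts by its name, so each count was scaled by its library's size factor. Dividing by the smallest value of each library gave whole reads, within 1e-06, for 100% of values above 0. Depth was 14271351 to 17231301 reads per library. No reads were realigned.

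Genes with a mean of at least 10 were tested on log2(value + 1) with limma 3.58.1 (intensity trend, R 4.3.3), two-sided, with Benjamini-Hochberg adjustment over 14428 genes at 0.05. The added 1 understates fold changes of low genes. edgeR 4.0.16 and DESeq2 1.42.0 were run on recovered reads. The scripts were tested on simulated data. The 36 genes, the wider lists and the tests were chosen with earlier results of these data known. Values in every library are given for leading genes of each role, for those of the 36 whose groups do not overlap or that have an outlying library; of the wider lists, 6 genes are named whatever their result, as are the 8 with the smallest unadjusted p. Lengths came from GENCODE M21 by symbol. Settings tried were other normalizations, pseudocounts, filters, tools and left-out libraries. Some items set for naming are not reported here. Same-numbered libraries are not stated to be paired.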

Additional observations from a re-analysis of the deposited data

Results flagged for a closer look

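Within each group of 4, a library was looked for whose gap to the nearest other exceeded Dixon's 95% critical value for 4 values, as a share of the group's range. Of 98 groups examined over the named genes 4 stood out, where chance gives about 1 in 20, that is 4.9. Nckap1l had 14007 normalized counts in saline library 4, against 14901 to 15035 in the other saline libraries. Sptan1 had 388 in ethanol library 4, with the others between 531 and 552. Sptbn1 had 298 in ethanol library 4, with the others between 240 and 243, so the library lowest for Sptan1 was the highest for Sptbn1. Arhgef7, an exchange factor for Rac and Cdc42, had 691 in ethanol library 3, with the others between 424 and 455.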

How the results depend on the processing

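No gene of the 36 and no gene of the wider lists was called under any of the settings run, and the median log2 fold change of the 36 genes stayed between -0.0017 and 0.0369 when 1 library was left out. Of 635 values of 49 named genes under alternatives that kept all libraries or fixed subsets, 21 turned in sign, and 34 genes turned in none of these. The cause of these turns was not tested. With quantile normalization Arpc1b was -0.00879, Ezr -0.00455 and Sptan1 0.0014 on the log2 scale. With a covariate for the number that opens each library's name Arpc1b was -0.0081 and Nckap1l -0.019, and with DESeq2 Arpc1b was -0.0017. In samples 1 and 2 alone Actr3 was -0.0351, Arpc2 -0.0116, Arpc3 -0.0274, Coro1b -0.0551, Was -0.0347, Rac1 0.0525, Ezr -0.521, Sptan1 0.13 and Aif1 -0.0574. In samples 3 and 4 alone Arpc1b was -0.0053, Wasf2 0.0376, Cyfip1 -0.0231, Nckap1l -0.0669, Abi1 -0.132 and Dock8 -0.0115. With 1 library left out, values ran from -0.0664 to 0.00068 for Arpc5, -0.0281 to 0.0237 for Wasf2, -0.0273 to 0.0607 for Nckap1l, -0.0333 to 0.0512 for Arpc1b, -0.0372 to 0.0699 for Arpc3, -0.0923 to 0.0189 for Rac1, -0.378 to 0.33 for Ezr, -0.0614 to 0.0901 for Aif1, -0.0148 to 0.0449 for Pfn1, -0.014 to 0.0758 for Coro1b, -0.064 to 0.0986 for Was, -0.118 to 0.11 for Sptan1, -0.0352 to 0.101 for Rac2, -0.118 to 0.0223 for Tmsb4x, -0.0358 to 0.0628 for Actr3 and -0.123 to 0.0153 for Brk1.

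The replicate block, fitted because both groups carry sample numbers 1 to 4, gave 0 called genes, with 645 genes at an unadjusted p under 0.05 against 524 without it, 3 of the 36 (Wasl, Msn and Sptbn1) against 1, and 10 of the wider genes against 7. Correlations of same-numbered libraries' deviations were 0.028, 0.064, 0.08 and 0.014, so the numbers are not shown to pair the libraries. Between an ethanol and a saline library, every correlation within samples 1 and 2 or within samples 3 and 4 was positive (0.014 to 0.137). Every one across these sets was negative (-0.105 to -0.023). The cause of this division was not tested. At an unadjusted p under 0.05 stood 7 of the 36 in samples 1 and 2 alone and 1 in samples 3 and 4 alone. The share over all genes in these fits is not given here, so neither count is a result about the 36 genes. The intervals of Wasl, Capg, Gsn, Ezr, Sptan1 and Sptbn1 are the ones not contained within 1.25-fold.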
